A study of Mus musculus with 24 samples.

Results

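The genes described here encode the extracellular matrix of the mouse embryo, the enzymes and the chaperone that process collagen, and the integrins that bind cells to the matrix. Their response to 40 µM 4-hydroperoxycyclophosphamide (4CP), an activated form of the anticancer drug cyclophosphamide, was measured after 1 h. Members were the array probes with exactly 1 annotated gene symbol that starts with Col and a digit, Lama, Lamb, Lamc, Itga, Itgb, Plod, Fbn, Fbln, Timp or Mmp, or that is Serpinh1, Fn1, Sparc, P4ha1, P4ha2, Nid1, Hspg2 or Lox. This gave 61 probes of 43 genes, out of 15360 probes, of which 9684 carried 1 symbol. By role they comprised 23 collagen probes of 15 genes, 3 probes of 3 collagen processing genes, 11 laminin probes of 5 genes, 15 probes of 11 other matrix genes, and 9 integrin probes of 9 genes. Itgb3bp, counted among the integrins, matches by its letters only and encodes a nuclear protein that binds the integrin beta 3 tail, not an integrin.

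Both groups were whole mouse embryos cultured at 37 °C, 1 kept in 4CP for 1 h and 1 untreated. Strain, stage, number of embryos per RNA sample and dyes are not stated in the labels. Treated and control RNA shared each of 24 two-channel arrays, 2 records for each of 12 slides, and slides formed 6 pairs with the channels swapped in the second slide. Deposited values came as 2 tables of 7680 probes, with 3 slide pairs each, so n = 3 pairs throughout. The first table held 21 member probes of 17 genes and the second 40 probes of 30 genes, with 4 genes (Lamb1, Lamc1, Sparc and Timp3) in both. Nothing states that the pairs came from separate cultures, so the spread between pairs may be technical. In whole embryos, fewer cells of a type and less RNA per cell cannot be told apart.

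Values are log ratios of the channels, in a base that is not stated, relative to the median probe of each array. To obtain the treatment effect of a pair, the slide whose channel 2 held treated RNA was subtracted from its partner and the result divided by 2. Neither the numerator channel nor any turning of swapped slides before deposit is stated, and positive values mean higher RNA under 4CP only with channel 1 as numerator and unturned slides. Signs are therefore given as positive and negative. Where arrays were not centred, all probes together had a median of -0.128 (first table) and -0.054 (second table), so a sign holds only relative to the median probe.

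Fibrillar collagens such as types I, II, III and V form the load-bearing fibres of connective tissue, while type IV collagen and laminin form separate networks in basement membranes that nidogen and perlecan tie together. Procollagen chains are hydroxylated on proline and lysine in the endoplasmic reticulum and are held by the chaperone encoded by Serpinh1 until they reach the Golgi. Integrins, dimers of an alpha and a beta chain, connect these networks to the cytoskeleton, and in the embryo both the body and the surrounding yolk sac membranes lay down matrix.

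No member passed the test in either table. With limma and Benjamini-Hochberg adjustment over each table, 0 of 21 and 0 of 40 member probes had an adjusted p under 0.05, beside 0% of all probes in both tables. At an unadjusted p under 0.05 there were 0 of 21 member probes in the first table, beside 2.34% of all probes, and 2 of 40 in the second, beside 5.22%. These 2 probes were that of Serpinh1, which was positive, as were 1.18% of all probes at this level, and 1 of Lamb1, which was negative, as were 4.04%. The share of members at this level was thus near or below that of all probes.

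The Serpinh1 probe had the largest effect of all members and, of all positive probes of the second table, the lowest p. Serpinh1 encodes the collagen-specific chaperone of the endoplasmic reticulum, a member of the serpin family whose transcript is known as heat inducible. Its effects were 0.141 in pair 1, 0.135 in pair 2 and 0.195 in pair 3, so the 3 pairs lay close together and on the same side. The mean was 0.157 ± 0.033 (SD, n = 3 pairs), with a 95% limma interval from 0.088 to 0.226, an unadjusted p of 6.8e-04 and an adjusted p of 0.673 over 7680 probes. Read as base 2 this is a ratio of 1.11 (interval 1.06 to 1.17), and as base e a ratio of 1.17 (1.09 to 1.25). By p the probe stood 6th of the table, and by size of the effect 56th.

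On the slides, the Serpinh1 log ratio was -0.409, 0.266 and -0.703 in pairs 1, 2 and 3 with treated RNA in channel 1, and -0.691, -0.005 and -1.09 in the swapped partners. The slide with treated RNA in channel 1 was the higher in every pair, although slides of different pairs overlapped widely. Taken record by record, all effects were positive, at 0.101, 0.140 and 0.126 in pairs 1, 2 and 3 for the first records and 0.181, 0.131 and 0.264 for those lettered B. The pairs differed far more from each other than the partners within a pair did: the mean of both orders was -0.550, 0.131 and -0.898. Serpinh1 was also the only member to pass an adjusted p of 0.05 in any alternative analysis, without pair 2 (effect 0.168, adjusted p = 0.045), whereas it had an adjusted p of 0.308 without pair 1 and of 0.686 without pair 3.

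The 250 bases upstream of the start of Serpinh1 and of Lamb1, from RefSeq on GRCm38.p6, are shown because these genes held the probes with the lowest p, a choice made after the values were seen. Capitals mark GC boxes (GGGCGG, or CCGCCC on the other strand) and the CCAAT box, and both sequences read 5′ to 3′ along the gene. The Serpinh1 stretch lies at chr7:99353240-99353489 on the minus strand and the Lamb1 stretch at chr12:31265043-31265292 on the plus strand.
Serpinh1: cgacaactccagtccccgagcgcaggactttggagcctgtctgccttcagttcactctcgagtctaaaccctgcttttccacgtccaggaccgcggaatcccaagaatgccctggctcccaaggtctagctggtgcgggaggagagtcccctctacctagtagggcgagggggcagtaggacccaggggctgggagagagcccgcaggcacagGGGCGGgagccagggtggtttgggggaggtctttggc
Lamb1: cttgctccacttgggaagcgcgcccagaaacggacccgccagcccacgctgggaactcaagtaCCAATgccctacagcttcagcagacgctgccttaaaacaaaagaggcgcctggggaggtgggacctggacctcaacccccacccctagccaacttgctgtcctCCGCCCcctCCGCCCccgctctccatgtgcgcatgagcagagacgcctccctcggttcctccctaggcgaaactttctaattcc
The Serpinh1 stretch has a GC content of 63.6% and 1 GC box, which starts 37 bases before the gene. The Lamb1 stretch has a GC content of 62%, with 2 GC boxes and 1 CCAAT. Promoters were found for 29 member genes, 33 stretches in all, among 32851 promoters of the same length. GGGCGG on either strand was in 19 of these 33 and in 32.7% of all promoters, CCAAT on either strand in 12 and in 33.8%, and TATAAA on either strand in 2 and in 12.4%. The inverted repeats GAANNTTC or TTCNNGAA, the form of a heat shock element core, were in 4 of the 33, beside 12.8% of all promoters, and these letters are not in the Serpinh1 or Lamb1 stretch. These matches describe letters in a window and are not sites.

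**Figure D1:**
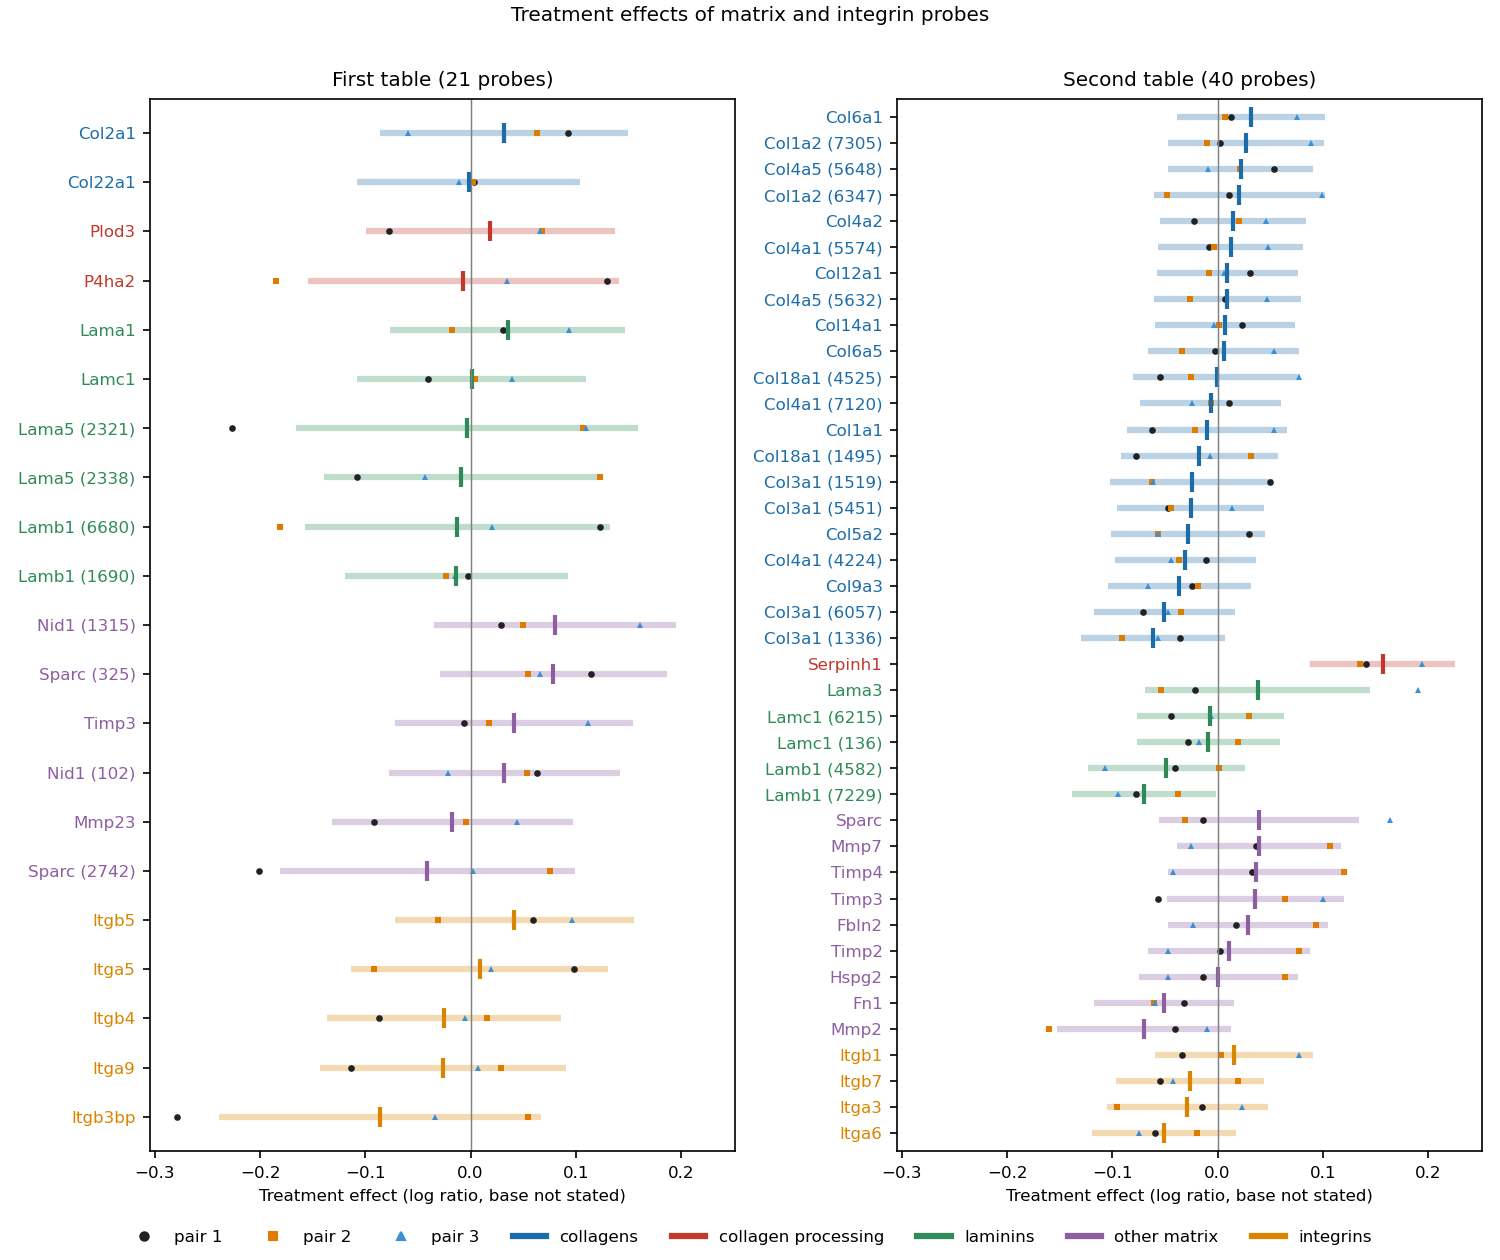
Treatment effect of every member probe in log ratio units on the x axis, 21 probes of the first table and 40 of the second, grouped by colour, with 1 marker per slide pair, a tick for the mean and a bar for the 95% limma interval. Serpinh1 stands apart on the positive side at 0.157, and nearly every other interval takes in 0.

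The other collagen processing enzymes, both measured in the first table, differed in sign between pairs. Plod3 encodes a lysyl hydroxylase that also adds sugars to collagen, and its effects were -0.077, 0.068 and 0.066, a mean of 0.019 ± 0.083 (adjusted p = 0.997). P4ha2, a catalytic subunit of collagen prolyl 4-hydroxylase, gave 0.129, -0.185 and 0.034, a mean of -0.007 ± 0.161 (adjusted p = 0.999). Neither mean exceeded its spread. Among collagen folding genes outside the members, P4hb encodes the partner subunit of prolyl 4-hydroxylase. Both of its second-table probes were positive in all 3 pairs, beside 9.84% of all probes, at 0.043 ± 0.019 and 0.050 ± 0.012. Their adjusted p-values were 0.966 and 0.949, and their means of both orders were -0.387 and -0.376. P3h1, at 0.001 ± 0.056, and the first-table probes of Crtap, at 0.005 ± 0.057 and 0.061 ± 0.094, differed in sign between pairs.

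Collagen genes were spread on both sides of 0. Of the 13 collagen genes of the second table, with probes averaged per gene, 7 were positive and 6 negative, with a median of 0.006 and a range from -0.041 to 0.032, beside a median of -0.003 over all 4075 named genes. The lowest gene was Col3a1, the chain of type III collagen of distensible tissues, whose 4 probes were all negative, although 1 of them moved to 0.0013 when arrays were scaled to the same spread. Its effect per gene was -0.041 ± 0.016.

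The probe of Col3a1 with the lowest p gave -0.036, -0.091 and -0.057 in the 3 pairs, a mean of -0.061 ± 0.028 (unadjusted p = 0.0739, adjusted p = 0.949). A separate Col3a1 probe was also negative in every pair, at -0.071, -0.035 and -0.047 (mean -0.051 ± 0.018). The remaining probes, at -0.026 ± 0.034 and -0.025 ± 0.064, each had 1 pair on the positive side. Thus the sign of the mean over both records was shared by the probes of this gene, while none of them passed the test. Single records did not all keep it. With first records alone the probe at -0.051 gave -0.052, 0.013 and 0.055 in the pairs. With B records alone the probe at -0.025 gave 0.053, 0.180 and -0.103.

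Other fibrillar chains lay closer to 0. Col1a1 and Col1a2 encode the chains of type I collagen: Col1a1 was at -0.010 ± 0.059, and the Col1a2 probes at 0.021 ± 0.074 and 0.027 ± 0.054. Col5a2, a chain of type V collagen that limits fibre width, was at -0.028 ± 0.050. Col2a1, the cartilage and notochord collagen measured in the first table, was at 0.032 ± 0.080, positive in pairs 1 and 2 and negative in pair 3.

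Type IV collagen, the network former of basement membranes, showed no shared direction. Col4a1 had 3 probes: -0.031 ± 0.018, with -0.011, -0.037 and -0.045 in the pairs, -0.006 ± 0.018, with 0.011, -0.006 and -0.024, and 0.012 ± 0.031, with -0.008, -0.003 and 0.048. The first of these was negative in every pair, and the others differed in sign between pairs. Col4a2, whose chain pairs with that of Col4a1, gave -0.023, 0.020 and 0.046, a mean of 0.015 ± 0.035. The probes of Col4a5, a chain of the networks of kidney and other epithelia, were at 0.022 ± 0.031 and 0.009 ± 0.037.

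Of the remaining collagens, Col6a1, a chain of beaded filaments around cells, was positive in every pair, at 0.013, 0.007 and 0.076 (mean 0.032 ± 0.038, adjusted p = 0.982). Col9a3, a chain of the collagen on the surface of cartilage fibrils, was negative in every pair, at -0.024, -0.018 and -0.066 (mean -0.036 ± 0.026, adjusted p = 0.976). Each kept 1 sign in every pair, which by itself keeps their pair values from overlapping. Of all second-table probes, 9.84% were positive and 14.7% negative in every pair. With first records alone Col6a1 was at -0.0046. Neither gene passed the test, and the difference between them was not tested. Col12a1 and Col14a1, fibril-associated collagens, were at 0.009 ± 0.020 and 0.007 ± 0.014, Col6a5 at 0.006 ± 0.044, and Col22a1, in the first table, at -0.002 ± 0.008. The probes of Col18a1, which encodes the precursor of endostatin, were at -0.017 ± 0.056 and -0.001 ± 0.070.

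Among laminins, Lamb1, the beta 1 chain of the early embryonic laminins, was negative in all 4 of its probes over both tables, although a first-table probe moved to 0.0076 with arrays scaled to the same spread and to 0.0041 after quantile normalization. The second-table probe with the lowest p gave -0.077, -0.037 and -0.095, a mean of -0.070 ± 0.030, with an unadjusted p of 0.0468 and an adjusted p of 0.945. On its slides the log ratio was -0.393, 0.059 and -0.881 with treated RNA in channel 1 and -0.238, 0.133 and -0.691 in the swapped partners, so the slide with treated RNA in channel 1 was the lower in every pair. The other second-table probe gave -0.041, 0.001 and -0.106 (mean -0.049 ± 0.054). First-table probes of Lamb1 were closer to 0, at -0.003, -0.023 and -0.015 (mean -0.014 ± 0.010) and at 0.123, -0.181 and 0.020 (mean -0.013 ± 0.154). The tables were fitted apart and their levels are not compared.

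Lamc1, the gamma 1 chain that joins beta 1 in most laminins, lay close to 0. It gave -0.040, 0.004 and 0.039 in the first table (mean 0.001 ± 0.040). In the second table its probes gave -0.028, 0.020 and -0.018 (mean -0.009 ± 0.025) and -0.045, 0.030 and -0.006 (mean -0.007 ± 0.037). Each Lamc1 probe thus had pairs on both sides of 0, and its difference from Lamb1 was not tested.

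The laminin alpha chains carry the cell-binding domains. Lama1, the alpha chain of the first embryonic laminin, gave 0.031, -0.018 and 0.093 (mean 0.035 ± 0.056). Lama5, the broadly expressed alpha chain of later basement membranes, had the widest spread of the laminins, with -0.226, 0.107 and 0.110 in 1 probe (mean -0.003 ± 0.193) and -0.107, 0.123 and -0.043 in the other (mean -0.009 ± 0.119). Lama3, the alpha chain of epithelial anchoring laminin, gave -0.022, -0.054 and 0.191, so that its mean of 0.038 ± 0.133 rested on pair 3. Within that pair the first records gave -0.025 and the B records 0.407.

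Nidogen 1 and perlecan, which tie basement membrane networks together, had positive means that did not pass the test, that of perlecan close to 0. Without centring all of these turned negative, Nid1 to -0.044 and -0.092 and the perlecan gene to -0.052. That shift is the same for every probe of a table, and without centring 0 of 21 first-table and 1 of 40 second-table member probes were positive. Nid1, nidogen 1, which links laminin to type IV collagen, was positive in every pair in 1 probe, with 0.029, 0.050 and 0.161 (mean 0.080 ± 0.071, adjusted p = 0.997), and gave 0.063, 0.054 and -0.022 in the other (mean 0.032 ± 0.046). Hspg2, the gene of perlecan, gave -0.014, 0.064 and -0.047 (mean 0.001 ± 0.057). Nid2, the other nidogen gene and not a member, was negative in every pair (mean -0.062 ± 0.033), so the nidogens did not share a direction.

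Sparc encodes a collagen-binding glycoprotein abundant in parietal yolk sac and bone, and its probes disagreed. A first-table probe was positive in every pair, with 0.115, 0.055 and 0.066 (mean 0.079 ± 0.032, unadjusted p = 0.132, adjusted p = 0.997). The other first-table probe gave -0.201, 0.075 and 0.003 (mean -0.041 ± 0.143), and the second-table probe -0.014, -0.031 and 0.164 (mean 0.040 ± 0.108). This was the widest gap between first-table probes of a member gene, 0.120, against a median of 0.027 over the 4 such pairs of probes. Among second-table members, 12 of 14 pairs of probes of a gene shared their direction, with a median gap of 0.020. These 14 are not independent, since the 4 probes of Col3a1 and the 3 of Col4a1 enter in every combination. The share over all genes of the table was not computed.

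Fn1 and Mmp2 were the negative genes among the other matrix members of the second table. There 7 of 9 genes were positive, beside 46.0% of all named genes, but none of the 7 in every pair. The medians of the 9 genes were -0.014, 0.064 and -0.026 in the pairs. Fn1 encodes fibronectin, an early matrix scaffold bound by integrins, and gave -0.032, -0.060 and -0.060 (mean -0.051 ± 0.016, unadjusted p = 0.119, adjusted p = 0.949). Mmp2, a gelatinase that degrades type IV collagen, gave -0.040, -0.160 and -0.010 (mean -0.070 ± 0.079, adjusted p = 0.949), with pair 2 well below the others. Within pair 2 the first records gave -0.283 and the B records -0.037. Fn1 and Mmp2 were negative in every pair.

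Inhibitors of metalloproteinases had positive means that did not pass the test. Without centring all 4 of their probes were negative, between -0.083 and -0.016, as were all member probes except that of Serpinh1. Timp3, which binds to the matrix, gave -0.006, 0.017 and 0.112 in the first table (mean 0.041 ± 0.063) and -0.057, 0.064 and 0.101 in the second (mean 0.036 ± 0.082). Timp2 was at 0.011 ± 0.063 and Timp4 at 0.037 ± 0.082. Mmp7, matrilysin, was at 0.039 ± 0.066, Mmp23 at -0.017 ± 0.069 and Fbln2, a fibulin of elastic fibres and basement membranes, at 0.029 ± 0.059. Each of these probes had pairs on both sides of 0.

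Integrin genes lay close to 0 on both sides. Of the 4 in the second table, 1 was positive, beside 46.0% of all named genes, with a median of -0.027. In the first table, 2 of 4 were positive, beside 51.0%, with a median of -0.008, or 2 of 5 with a median of -0.025 when Itgb3bp is counted. Without centring all of them were negative, as were all member probes except that of Serpinh1. Itga6, the alpha chain of laminin receptors, was negative in every pair, at -0.059, -0.019 and -0.075 (mean -0.051 ± 0.028, unadjusted p = 0.124, adjusted p = 0.949). Itgb1, the beta chain shared by most matrix receptors, gave -0.033, 0.003 and 0.078 (mean 0.016 ± 0.057).

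The other alpha chains were Itga3, a laminin receptor chain, at -0.029 ± 0.061, Itga5, the fibronectin receptor chain, at 0.009 ± 0.096, and Itga9 at -0.026 ± 0.077. Among beta chains, Itgb4, the partner of Itga6 in hemidesmosomes, was at -0.025 ± 0.054, and Itgb7, a leukocyte chain, at -0.026 ± 0.040. Itgb5, a vitronectin receptor chain, had the largest positive integrin effect with 0.059, -0.031 and 0.097 (mean 0.042 ± 0.066). Itgb3bp gave -0.279, 0.054 and -0.034 (mean -0.086 ± 0.173), so its negative mean rested on pair 1.

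**Figure D2:**
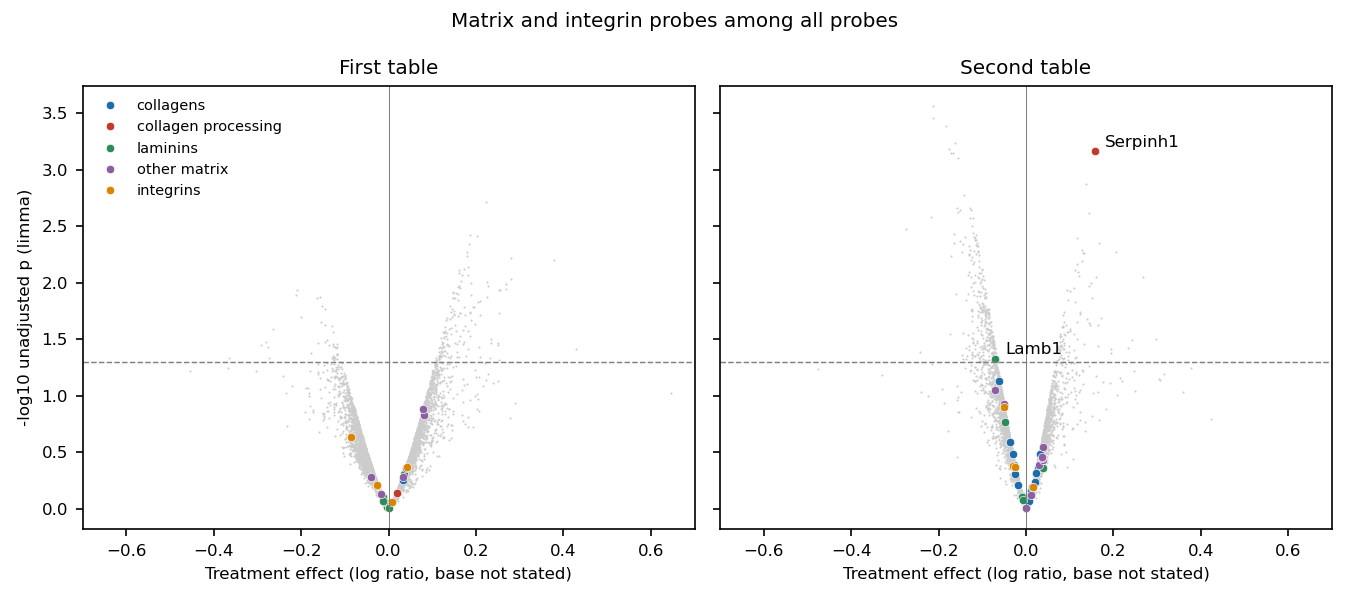
Treatment effect in log ratio units (x axis) against -log10 of the unadjusted limma p (y axis) for all 7680 probes of each table in grey and member probes in colour, with a dashed line at an unadjusted p of 0.05. In the second table Serpinh1 and 1 Lamb1 probe lie above the line, and in the first table no member does.

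As a set, the members looked like the rest of each table. In the first table, 9 of 17 member genes were positive, with a median of 0.001, beside 51.0% positive and a median of 0.001 over all 3838 named genes. In the second 17 of 30 were positive, with a median of 0.006, beside 46.0% and -0.003. Pair by pair, the member median was -0.006, 0.016 and 0.034 (first table) and -0.014, -0.005 and -0.005 (second table). The medians of all named genes were 0.024, 0.008 and -0.010 (first table) and -0.010, -0.003 and -0.0002 (second table). Pairs of the first table thus did not share a direction, and in the second all 3 pair medians were below 0 although the median of the genes' mean effects was above it.

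Agreement between pairs was no more frequent among members. In the first table, 3 of 21 member probes had the same sign in all 3 pairs, beside 22.6% of all probes. Of these, 2 were positive (Nid1 and Sparc), beside 11.4%, and 1 was negative (Lamb1), beside 11.2%. Among second-table members it was 10 of 40, beside 24.5%. Of these 10, 2 were positive (Serpinh1 and Col6a1), beside 9.84% of all probes, and 8 were negative, beside 14.7%. The negative ones were 2 probes of Col3a1 and 1 each of Col4a1, Col9a3, Lamb1, Fn1, Mmp2 and Itga6. A count of 8 of 40 is a share close to that background.

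The 95% limma intervals are not adjusted for the number of probes and hold only if the swapped slides were not turned before deposit. They rest on the spread between 3 pairs, which limma draws towards a value shared by all probes of the table. Their widths therefore do not follow the SD of a single probe: Col22a1, with an SD of 0.008, had an interval from -0.108 to 0.104. The spread between pairs may be technical, so larger effects are not excluded. Intervals of all 21 first-table members took in 0, and their bounds reached from -0.239 (Itgb3bp) to 0.195 (Nid1). Those of the 39 second-table probes other than Serpinh1 reached from -0.153 (Mmp2) to 0.145 (Lama3), ratios of 0.900 to 1.11 in base 2 or 0.858 to 1.16 in base e, and 38 of them took in 0. The median distance from mean to bound was 0.115 for first-table and 0.072 for second-table members. Second-table members thus had the narrower intervals.

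**Figure D3:**
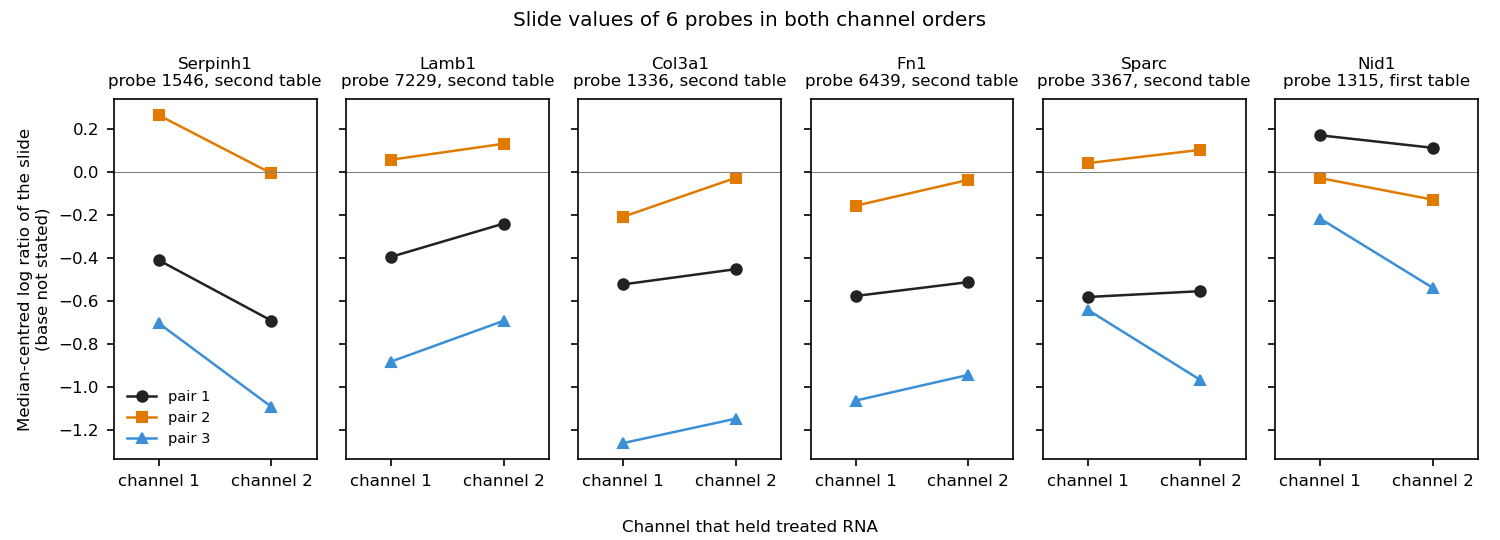
Median-centred log ratio of the slide (y axis) for 6 probes chosen after the values were seen, with treated RNA in channel 1 and in channel 2 (x axis) and a line for each slide pair. The Serpinh1 and Nid1 lines fall in every pair, those of Lamb1, Col3a1 and Fn1 rise in every pair, and slides of different pairs lie far apart.

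How the swapped slides are read sets the size and often the sign of the member values. If the authors had already turned these slides, the treatment effect would be the mean of both orders without the turn. On that reading 0 of 21 and 0 of 40 members passed an adjusted p of 0.05, beside 2.85% of all first-table probes and 0% of the second. At an unadjusted p under 0.05 there were 3 of 21 (beside 18.5%) and 5 of 40 (beside 16.3%). Negative values in all 3 pairs were found for 2 of 21 (beside 18.1%) and 6 of 40 (beside 17.9%). The sign differed from the turned reading for 17 of 21 and 11 of 40 member probes. The share over all probes is not given here, so these counts are not set against a background.

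Values without the turn were several times larger for both members and other probes. The SD over all probes was 0.333 and 0.320, against 0.059 and 0.045 with the turn. The lowest member probe was 1 of Col3a1 at -0.602 ± 0.553, with -0.486, -0.116 and -1.20 in the pairs. It was followed by Fn1 at -0.547 ± 0.454, with -0.543, -0.095 and -1.003. Nid1 reached -0.537 ± 0.508 and Sparc -0.468 ± 0.426 in the first table, and Serpinh1 turned to -0.439 ± 0.523. In these probes pair 3 was far the lowest and pair 2 nearest to 0. Other probes of the same genes differed. The other first-table Sparc probe was at 0.175 ± 0.395, with pair 3 the highest at 0.618, and the other Nid1 probe at -0.103 ± 0.261. A further Col3a1 probe gave 0.242, -0.414 and 0.187 in the pairs.

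At the other end Lama3 was at 0.455 ± 0.037, with 0.491, 0.416 and 0.458 in the pairs. These values were even, but the pair 3 value averaged unlike records. With treated RNA in channel 2 its first record was at 0.684 and its B record at -0.149. Of the Lama5 probes, 1 reached 0.434 ± 0.302 and the other 0.217 ± 0.141, and Mmp23 was at 0.425 ± 0.346. Of 20 second-table probes that were negative with the turn, 17 were negative under both readings, among them Fn1, both Lamb1 probes (1 at -0.335 ± 0.441) and 3 of 4 probes of Col3a1, whose other probe was at 0.005 ± 0.364 without it. Of 11 such first-table probes, 0 were negative under both. Without the turn, 25 of 40 second-table and 6 of 21 first-table members were negative in any case. The share of all probes negative under both readings is not given here, so the overlap is not a result about these genes. The labels do not tell which reading is right.

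**Figure D4:**
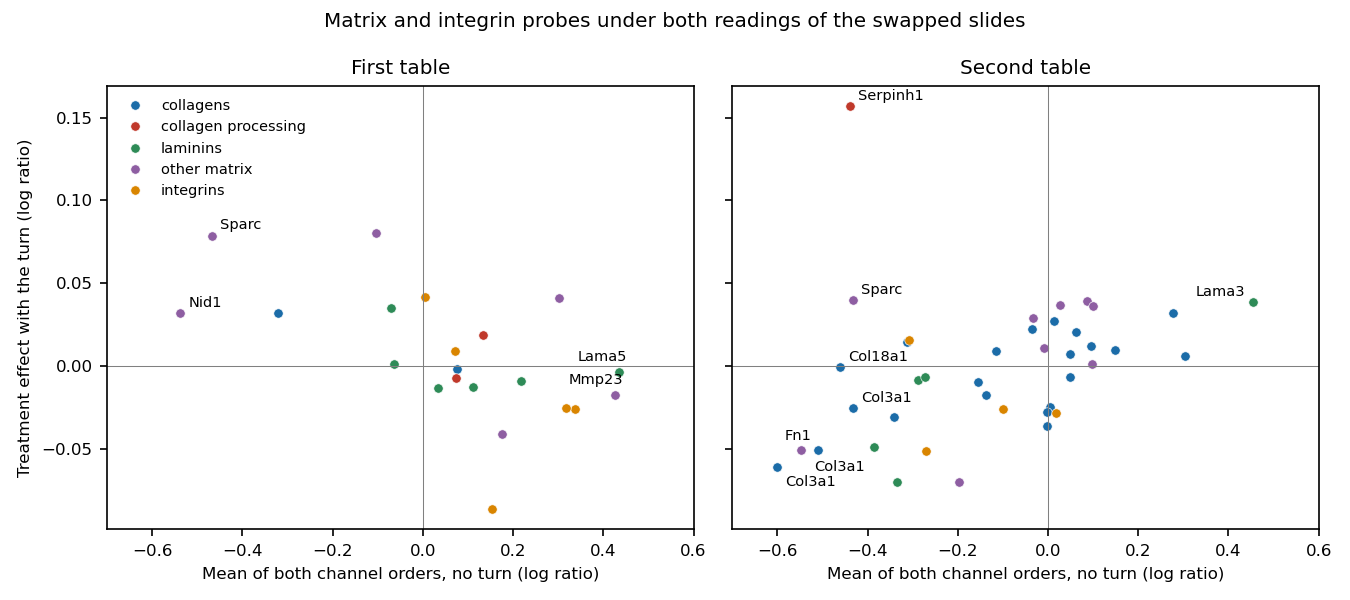
Mean of both channel orders without the turn (x axis) against the treatment effect with the turn (y axis), in log ratio units, for 21 member probes of the first table and 40 of the second, coloured by role. The x values span from -0.602 to 0.455 and the y values from -0.086 to 0.157, and Serpinh1 is positive on the y axis and negative on the x axis.

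Other matrix, collagen folding and adhesion genes gave no calls either. Of 58 listed genes, 11 were measured in the first table by 17 probes, with 0 past the test, 8 positive and 9 negative. In the second 25 genes were measured by 32 probes, with 0 past the test, 15 positive and 17 negative, and medians were -0.004 and -0.003. Bmp1, the proteinase that removes the C-terminal propeptide of procollagen, was the only one with an unadjusted p under 0.05. It gave -0.125, -0.106 and -0.099 in the second table (mean -0.110 ± 0.013, unadjusted p = 0.0047, adjusted p = 0.823). Its first-table probe gave -0.257, 0.141 and 0.946 (mean 0.277 ± 0.613), so the tables differed in sign. Nid2, the relative of nidogen 1, was negative in every pair (mean -0.062 ± 0.033, adjusted p = 0.949), as was Vcan, the gene of versican (mean -0.048 ± 0.024, adjusted p = 0.949). Bmp1, Nid2, Vcan and P4hb are named after their values were seen.

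Cells of the yolk sac also make these matrix proteins, so their markers were read beside the members, with no marker passing the test. Parietal endoderm, the main source of Lama1, Lamb1, Lamc1, Col4a1, Sparc and Nid1 around the embryo, had 4 of 8 further markers measured in the first table, by 8 probes. Of these 7 were positive, beside 3551 of 7680 probes in all, and their median was 0.077. The keratin genes Krt8 and Krt18 supplied 5 of the 8, at 0.075 to 0.097, while Krt19 was at 0.013 ± 0.092 and the Plat probes at -0.029 ± 0.077 and 0.008 ± 0.156. Krt18 was at 0.029 ± 0.010 in the second table. The summed effect of the 8 probes was 0.865, -0.137 and 0.518 in the pairs. Visceral endoderm markers were negative for 4 of 4 measured genes of 9, beside 4129 of 7680 probes (median -0.038, sums of -0.348, 0.020 and -0.134). Primitive erythroid markers, 3 of 6 genes by 6 second-table probes, were all negative, beside 3966 of 7680 probes (median -0.056, sums of -0.753, 0.050 and -0.347). Most of these probes belong to the same gene, Hbb-y, and each Hbb-y probe was positive in pair 2. Mesenchyme was measured through Pdgfra at 0.061 ± 0.165, Pdgfrb at 0.038 ± 0.081 and Tcf21 at -0.051 ± 0.093. In the first table, neural tube was measured through Nes at 0.054 ± 0.053 and endothelium through Cdh5 at 0.020 ± 0.016, both positive in every pair. Trophoblast markers, 2 of 6 genes by 3 first-table probes, had a median of -0.0009. The part of these cell types in the member effects was not tested.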

How the data were processed

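Members and gene lists were chosen with earlier results of these data known. The values were used as the authors deposited them, as 2 tables of log ratios whose base, numerator, background correction and normalization are not stated in the labels or tables; spot intensities were not analysed here. The arrays' own medians differed (-0.305 to 1.12, first table; 0.272 to 2.10, second). Each array was centred on its median, the 2 records of a slide were averaged, and pair effects were tested against 0 (two-sided) by lmFit and eBayes of limma 3.58.1 (R 4.3.3), Benjamini-Hochberg adjusted over 7680 probes, a threshold of 0.05 and no filter. The script was tested on simulated data. Log2 ratios had been assumed; the base leaves limma's p-values as they are. Titles name the 2 slides of a pair together, and deviations of partner slides from their group means correlated at 0.473, 0.855 and 0.928 (first table) and at 0.688, 0.930 and 0.894 (second table). Records of a slide correlated at 0.426 to 0.926.

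Gene names came from the platform annotation, brought up to date where the reference held it (4712 of 4749 first-table and 4884 of 4935 second-table probes with 1 symbol); 2704 and 2470 probes had no symbol and 227 and 275 had several. The rule for genes given with pair values took Serpinh1, the basement membrane genes Col4a1, Col4a2, Lama1, Lamb1, Lamc1, Nid1, Hspg2 and Sparc, Fn1, Itgb1, genes in both tables, up to 5 probes per table and direction with the lowest p among those of 1 sign in all pairs, and the extremes of each group. Plod3, Lama5, Col9a3 and Itga6 were described by pair outside the rule. Alternatives were scaling, quantile normalization, no centring, leaving out a pair, single records, single channel orders, no turn, no pairing, and, chosen after seeing the data, removal of a linear trend on the mean of both orders within a pair.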

Additional observations from a re-analysis of the deposited data

How the results depend on the processing

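With 3 pairs and no intensities, signal over background is unknown and the number of slides limits the precision. In the first table, probes past an adjusted p of 0.05 rose from 0 to 33 with values as deposited, 219 without the turn, 174 and 668 with channel 1 or channel 2 slides alone, and 24 to 30 with 1 pair left out (24 without pair 1 or pair 3, 30 without pair 2). In the second they were 1 as deposited and 0 to 58 with 1 pair left out (40 without pair 1, 58 without pair 2, 0 without pair 3). No member was among them except Serpinh1 without pair 2, so members counted 0 to 1 there. Dropping the replicate block and fitting single slides with a dye term, that is, without the pairing, left 0 probes in both tables. The cause of these differences was not tested.

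The median of member genes was 0.0011 in the first table. It was -0.123 as deposited, 0.0733 without the turn, 0.0666 and -0.0803 with channel 1 or 2 alone, and -0.0045 to 0.0199 with 1 pair left out. In the second table it was 0.0065, against -0.0464 as deposited, -0.0499 without the turn, -0.0489 and 0.0603 with channel 1 or 2 alone, -0.0029 and 0.0169 with first or B records, 0.00014 over probes, and -0.0122 to 0.0092 with 1 pair left out. As deposited, the median of all probes lay at -0.128 and -0.054.

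Over all members, signs changed for 10 of 21 first-table and 19 of 40 second-table probes as deposited, for 7 and 5 with arrays scaled to one spread, and for 3 and 3 after quantile normalization. Of the 36 probes given by pair, none of which passed the test, these changed sign (numbers mark probes of genes with several). With values as deposited signs changed for Plod3 (-0.105), Itgb5 (-0.0822), Lama1 (-0.0885), Lamc1 329 (-0.123), Nid1 102 (-0.0919), Nid1 1315 (-0.0437), Sparc 325 (-0.0452), Timp3 6358 (-0.0829), Col4a1 5574 (-0.0405), Col4a2 (-0.0382), Col6a1 (-0.0207), Itgb1 (-0.0369), Lama3 (-0.0145), Hspg2 (-0.0519), Sparc 3367 (-0.0132) and Timp3 5414 (-0.0169). Without the turn signs changed for P4ha2 (0.0733), Itgb3bp (0.153), Lama1 (-0.0711), Lama5 2321 (0.434), Lama5 2338 (0.217), Lamb1 1690 (0.0343), Lamb1 6680 (0.11), Lamc1 329 (-0.0638), Nid1 102 (-0.537), Nid1 1315 (-0.103), Sparc 2742 (0.174), Sparc 325 (-0.468), Serpinh1 (-0.439), Col4a1 7120 (0.0494), Col4a2 (-0.313), Itgb1 (-0.308) and Sparc 3367 (-0.432). With channel 1 slides alone signs changed for P4ha2 (0.0664), Itgb3bp (0.0665), Lama1 (-0.0358), Lama5 2321 (0.43), Lama5 2338 (0.208), Lamb1 1690 (0.0208), Lamb1 6680 (0.0977), Lamc1 329 (-0.0626), Nid1 102 (-0.505), Nid1 1315 (-0.0229), Sparc 2742 (0.133), Sparc 325 (-0.389), Serpinh1 (-0.282), Col4a1 7120 (0.043), Col4a2 (-0.298), Itgb1 (-0.292) and Sparc 3367 (-0.392). With channel 2 slides alone signs changed for Plod3 (-0.114), Timp3 6358 (-0.26), Col3a1 1336 (0.541), Col3a1 6057 (0.458), Col4a1 4224 (0.311), Col4a1 5574 (-0.0835), Col6a1 (-0.244), Itga6 (0.219), Lama3 (-0.417), Lamb1 4582 (0.338), Lamb1 7229 (0.265), Lamc1 136 (0.28), Lamc1 6215 (0.266), Fn1 (0.496), Hspg2 (-0.0969), Mmp2 (0.128) and Timp3 5414 (-0.0632). With arrays scaled to one spread signs changed for P4ha2 (0.00777), Plod3 (-0.00795), Lama1 (-0.000315), Lama5 2338 (0.00173), Lamb1 1690 (0.00755), Lamc1 329 (-0.015) and Col4a1 5574 (-0.00515). After quantile normalization signs changed for Plod3 (-0.0169), Lamb1 1690 (0.00405), Lamc1 329 (-0.0187) and Lamc1 136 (0.00515). With first records signs changed for Plod3 (-0.0192), Lama5 2338 (0.0359), Lamb1 6680 (0.0343), Lamc1 329 (-0.0169), Col3a1 6057 (0.00497), Col4a1 5574 (-0.0102), Col4a2 (-5.67e-06), Col6a1 (-0.00458), Lama3 (-0.0311) and Lamc1 6215 (0.0131). With B records signs changed for P4ha2 (0.0167), Lama1 (-0.0172), Lama5 2321 (0.0195), Col4a1 4224 (0.00284), Col4a1 7120 (0.00246) and Hspg2 (-0.00685). With the trend removed, chosen after seeing the data, signs changed for P4ha2 (0.0134), Lamb1 1690 (0.00399), Lamc1 329 (-0.00432), Lamc1 136 (0.000965) and Lamc1 6215 (0.000236). Leaving out 1 pair, signs changed within these ranges: P4ha2 (-0.0751 to 0.0819), Plod3 (-0.00585 to 0.0669), Itgb3bp (-0.157 to 0.0101), Lama5 2321 (-0.0598 to 0.108), Lama5 2338 (-0.0752 to 0.0398), Lamb1 6680 (-0.0803 to 0.0715), Lamc1 329 (-0.0179 to 0.0217), Sparc 2742 (-0.0993 to 0.0389), Col4a1 5574 (-0.00557 to 0.0224), Col4a1 7120 (-0.015 to 0.00261), Col4a2 (-0.00123 to 0.0334), Itgb1 (-0.015 to 0.0405), Lama3 (-0.0378 to 0.0845), Lamc1 136 (-0.0228 to 0.000862), Lamc1 6215 (-0.0253 to 0.0121), Hspg2 (-0.0306 to 0.0251) and Sparc 3367 (-0.0223 to 0.0749).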
